A study of Mus musculus with 4 samples.

Results

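The genes described here are targets of p53, the transcription factor encoded by *Trp53*, in mouse embryonic stem cells (ESCs) given the histone demethylase inhibitor GSK-J4, ascorbic acid (AA) or both. A list of 10 symbols was looked up by gene name in the expression tables: the targets *Cdkn1a*, *Mdm2*, *Ccng1*, *Trp53inp1*, *Phlda3*, *Zmat3*, *Eda2r*, *Btg2* and *Acad11*, with *Trp53* itself as the reference. Of these, 9 have a value, among 9779 genes that do, and *Phlda3* was not analysed here. The list was drawn up with the GSK-J4 values of these libraries known, and its members were thus in part selected on the GSK-J4 against DMSO ratios of FPKM, so those ratios are given as a description and no test was applied to them.

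The cells are LF2 ESCs, a female line of strain 129/J that had been grown on feeder cells and then passaged without them. All 4 cultures were treated for 24 hr: PBS+DMSO received both vehicles, PBS+GSK-J4 received 10 µM GSK-J4, AA+DMSO received 50 µg/ml AA, and AA+GSK-J4 received both agents at those doses. RNA-Seq of total RNA gave 1 library for each condition, so no condition has a spread between replicates, and no p-value is given for the differences below. Values are FPKM, fragments per kilobase of exon scaled by the fragments mapped, added up for each gene over its coding sequence groups. Since FPKM is per length, levels of different genes can be set side by side. The number of reads behind a value is not known.

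In unstressed cells the ubiquitin ligase Mdm2 keeps p53 protein low by marking it for degradation. When stress weakens this control, p53 accumulates and binds DNA elements made of a pair of similar half-sites, from which it activates genes that halt the cell cycle, promote cell death, alter metabolism or, as with *Mdm2*, restrain p53 again. The level of *Trp53* mRNA is therefore a poor guide to p53 activity, which is set mainly on the protein. ESCs express abundant p53 and cycle with a short G1 phase, and their *Cdkn1a* is low compared with that of many differentiated cells.

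Matches to a p53 half-site, and in some cases to a pair of them, can be read in the promoters of some of these genes. RefSeq (GRCm38.p6) gives a promoter window, from 250 bases before to 50 bases after a transcription start, for 7 of the 9 genes with a value, and none for *Zmat3* and *Trp53inp1*. The 4 windows that hold a match to the p53 half-site consensus are those of *Cdkn1a*, *Mdm2*, *Ccng1* and *Trp53*. Their 250 bases before the start are shown because they carry these matches. The *Cdkn1a* stretch is chr17:29090729-29090978 on the plus strand, the *Mdm2* stretch chr10:117710759-117711008 on the minus strand, the *Ccng1* stretch chr11:40755287-40755536 on the minus strand and the *Trp53* stretch chr11:69580109-69580358 on the plus strand. Each is written 5′ to 3′ on the strand of its gene, and capitals mark half-sites and pairs of adjacent half-sites.
Cdkn1a: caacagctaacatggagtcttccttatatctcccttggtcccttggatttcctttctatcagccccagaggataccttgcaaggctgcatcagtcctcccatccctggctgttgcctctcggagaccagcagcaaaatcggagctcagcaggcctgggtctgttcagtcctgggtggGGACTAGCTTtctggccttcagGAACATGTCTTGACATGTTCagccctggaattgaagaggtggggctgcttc
Mdm2: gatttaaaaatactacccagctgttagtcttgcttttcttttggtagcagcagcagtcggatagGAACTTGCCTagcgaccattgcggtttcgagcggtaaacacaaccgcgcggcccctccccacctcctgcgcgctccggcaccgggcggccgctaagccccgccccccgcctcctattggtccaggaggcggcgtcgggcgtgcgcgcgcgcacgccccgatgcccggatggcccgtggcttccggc
Ccng1: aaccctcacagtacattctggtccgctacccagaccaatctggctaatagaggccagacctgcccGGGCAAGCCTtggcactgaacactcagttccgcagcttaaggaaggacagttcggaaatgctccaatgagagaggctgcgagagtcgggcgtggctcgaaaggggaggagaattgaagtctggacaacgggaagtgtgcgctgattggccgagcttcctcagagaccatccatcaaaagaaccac
Trp53: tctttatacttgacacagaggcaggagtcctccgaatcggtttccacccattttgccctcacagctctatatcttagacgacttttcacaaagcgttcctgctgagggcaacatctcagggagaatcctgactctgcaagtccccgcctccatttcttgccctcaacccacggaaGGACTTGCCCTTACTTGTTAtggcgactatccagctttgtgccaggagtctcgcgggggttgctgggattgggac

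The half-site consensus reads the same on both strands, so a single search covers them. In *Cdkn1a*, matches without a mismatch begin 73 and 51 bases before the more upstream of its starts that have a window. Others begin 186 bases before the start of *Mdm2*, 185 bases before that of *Ccng1* and 75 bases before that of *Trp53*. Such a match is in 8.36% of all 32851 promoter windows, and in 7.88% of the 7497 genes that have both a window and a value. A pair of adjacent half-sites with no spacer, both 4-base cores intact and at most 3 mismatches in 20 bases is rarer, at 0.572% of all windows. The windows of *Mdm2* and *Ccng1* hold a lone half-site and no such pair. *Cdkn1a* has such a pair with 1 mismatch and *Trp53* has one with 3, shown here with only the cores in capitals.
Cdkn1a: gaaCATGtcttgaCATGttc
Trp53: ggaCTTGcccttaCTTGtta

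The windows of *Btg2*, *Acad11* and *Eda2r* hold no match. Neither does a second *Cdkn1a* window, of a start further downstream, that begins at chr17:29093519. This says only that these letters are not within those bases, and a match is not evidence of binding. Among other known p53 targets, a pair was found in the windows of 6 of the 28 genes with a window and a value (21.4%). The closest 2 matches, with 1 mismatch each, are those of the ribosomal protein paralogue gene *Rps27l* and of *Gtse1*, whose product holds p53 in check in G2, shown with the cores in capitals. The *Rps27l* pair begins 117 bases before the start, in the window chr9:66946163-66946462, and the *Gtse1* pair begins 1 base before it, in the window chr15:85859696-85859995, both on the plus strand.
Rps27l: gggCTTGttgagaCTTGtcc
Gtse1: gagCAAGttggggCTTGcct

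With GSK-J4 and without AA, all 8 target genes with a value were higher than in PBS+DMSO, as were 37% of the 9196 genes that reached 1 FPKM in at least 1 of the 2 libraries. On the log2(FPKM + 1) scale 6 of the 8 were 2-fold higher or more, compared with 4.96% of all genes. With AA present the 8 genes were again all higher with GSK-J4 (37.8% of 9139 genes), 7 of them 2-fold or more (4.13%). None was 2-fold lower in either comparison (3.5% and 3.38% of all genes). For the 8 targets the log2 ratio had a median of 1.67 without AA and 1.52 with AA, where the medians of all genes were -0.17 and -0.16. These shares and medians give the background, and since the members were chosen with these ratios known, nothing more is read from the counts. The comparisons without and with AA share no library.

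**Figure D1:**
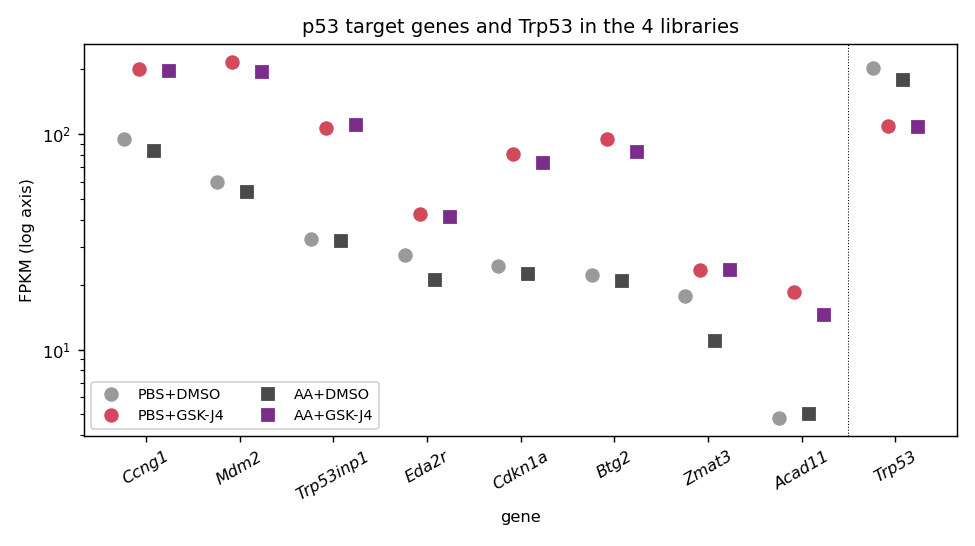
FPKM on a log axis of the 8 p53 target genes with a value and of *Trp53* in the 4 libraries, with circles for PBS, squares for AA, and 1 point for each library. For each target both GSK-J4 points lie above both DMSO points, and for *Trp53* both lie below, at 109 and 108 against 203 and 179.

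The genes that feed back on p53 come first. *Mdm2* encodes the ligase that marks p53 for degradation, and spans chr10:117688859-117710762 (mm10). Its FPKM was 59.7 in PBS+DMSO and 54.1 in AA+DMSO, against 217 in PBS+GSK-J4 and 195 in the library of both agents. Both GSK-J4 libraries were far above both DMSO libraries, by 3.63-fold without AA and 3.61-fold with AA, and the log2 ratios were 1.84 and 1.83. Among all genes *Mdm2* ranked 71 from the highest ratio without AA and 62 with AA.

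The tables split *Mdm2* into 2 coding sequence groups, sets of transcripts that encode the same protein. The smaller group had FPKM values of 19, 83.1, 20.1 and 66.9 in PBS+DMSO, PBS+GSK-J4, AA+DMSO and AA+GSK-J4. The larger had 40.7, 133, 34.0 and 128 in the same order. Both were higher with GSK-J4, between 3.28-fold and 4.37-fold, and the smaller group made up between 31.8% and 38.4% of the gene in every library.

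*Ccng1* encodes cyclin G1, which recruits a phosphatase to Mdm2 and so also acts on p53 control, and spans chr11:40748479-40755318. *Ccng1* stood at 94.7 FPKM in PBS+DMSO and 83.1 in AA+DMSO, and at 200.1 in PBS+GSK-J4 and 196 where AA was added to GSK-J4. The GSK-J4 libraries were 2.11-fold and 2.36-fold above their DMSO libraries, with log2 ratios of 1.07 and 1.23. In DMSO *Ccng1* was the most abundant of the 8 targets, with 33.4% of their summed FPKM in PBS+DMSO against 21% for *Mdm2*. In PBS+GSK-J4 *Mdm2* was first, with 27.7% against 25.6%, and in AA+GSK-J4 the levels of *Ccng1* and *Mdm2*, 196 and 195, were nearly equal and with 1 library have no order.

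*Trp53inp1* encodes a stress-induced nuclear protein that favours p53 phosphorylation and autophagy, and spans chr4:11156436-11175246. The DMSO libraries gave an FPKM of 32.7 with PBS and 31.8 with AA, and the GSK-J4 libraries gave 106 with PBS and 109.9 with AA. The values of each pair lay close together, and the GSK-J4 folds were 3.25 without AA and 3.46 with AA.

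That steadiness holds for the sum and not for its 2 coding sequence groups. One had 16.1, 36.1, 10.6 and 50.9 FPKM in PBS+DMSO, PBS+GSK-J4, AA+DMSO and AA+GSK-J4, and the other had 16.6, 70.3, 21.2 and 59.0. The folds of the former, 2.24 and 4.79, and of the latter, 4.24 and 2.79, thus swap order between the comparisons, and the share of the former moved between 33.5% and 49.3% of the gene. How reads were divided between such groups was an estimate made by the authors' software, and its part in these values was not tested.

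The genes that slow the cell cycle are *Cdkn1a* and *Btg2*. *Cdkn1a* encodes p21, the inhibitor of cyclin-dependent kinases through which p53 arrests cells in G1, and spans chr17:29090991-29100720. *Cdkn1a* mRNA was at 24.5 FPKM in PBS+DMSO and 22.5 in AA+DMSO, compared with 80.5 in PBS+GSK-J4 and 73.6 under GSK-J4 with AA. The 2 DMSO values were alike and the 2 GSK-J4 values 3.28-fold and 3.27-fold above them, with log2 ratios of 1.67 in both comparisons. In PBS+DMSO 74.9% of all genes had a lower FPKM than *Cdkn1a*, and in PBS+GSK-J4 94.8% had.

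*Btg2* encodes an antiproliferative protein that binds the CCR4-NOT deadenylase, and spans chr1:134075226-134079175. Its level was 22.1 FPKM in PBS+DMSO and 20.8 in AA+DMSO, against 95.3 in PBS+GSK-J4 and 83.0 in the cells given both agents. These are the largest ratios among the 8 targets in both comparisons, 4.31-fold and 3.98-fold, with log2 ratios of 2.06 and 1.94. It ranked 43 and 49 from the highest among all genes. *Btg2* was the only member at least 4-fold higher on the log2(FPKM + 1) scale, and only without AA, where 0.522% of all genes were (0.416% with AA). In DMSO it lay below *Eda2r* and *Cdkn1a*, by a small margin from *Eda2r* in AA+DMSO, and with GSK-J4 it was above both.

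The remaining targets act in cell death, metabolism and RNA binding. *Acad11* encodes an acyl-CoA dehydrogenase of fatty acid oxidation and spans chr9:104063601-104127646. It was the least abundant target in every library, at 4.80 FPKM in PBS+DMSO and 5.02 in AA+DMSO, and at 18.5 in PBS+GSK-J4 and 14.5 when GSK-J4 and AA were combined. The GSK-J4 folds were 3.85 and 2.89 and the log2 ratios 1.75 and 1.36, so the ratio of this low gene without AA was close to that of the abundant *Mdm2*, and with AA it was 0.96 with a pseudocount of 5. In the GENCODE M21 annotation its span overlaps *Ackr4* on the opposite strand over 42777 bases and *Gm28305* on the same strand over 12279 bases. Neither is listed in the tables, the strand of the libraries is not stated, and reads from these genes cannot be told apart from those of *Acad11* where exons coincide.

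*Eda2r* encodes a death-domain-lacking receptor of the TNF receptor family for the ectodysplasin A2 ligand, and is X-linked at chrX:97332342-97377225. In DMSO its FPKM was 27.4 with PBS and 21 with AA, and in GSK-J4 it was 42.5 with PBS and 41.2 with AA. The GSK-J4 values were close to each other and the DMSO values were not, giving 1.55-fold without AA and 1.96-fold with AA. The log2 ratios, 0.62 and 0.94, are the only ones to stay below 2-fold in both comparisons, although with AA all 4 other scalings put it past 2-fold.

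*Zmat3* encodes a zinc finger protein that binds RNA and affects splicing, and spans chr3:32334792-32365552. *Zmat3* had 17.7 FPKM in PBS+DMSO but 11.0 in AA+DMSO, and 23.4 in both GSK-J4 libraries. Without AA its ratio was the smallest of the 8, 1.32-fold or 0.38 on the log2 scale, at rank 1623 from the highest of 9196 genes. With AA it was 2.13-fold, or 1.03 on the log2 scale, at rank 356 of 9139, and 0.83 with a pseudocount of 5. The 2 GSK-J4 libraries had the same level, so the difference between the ratios is one between the DMSO libraries.

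**Figure D2:**
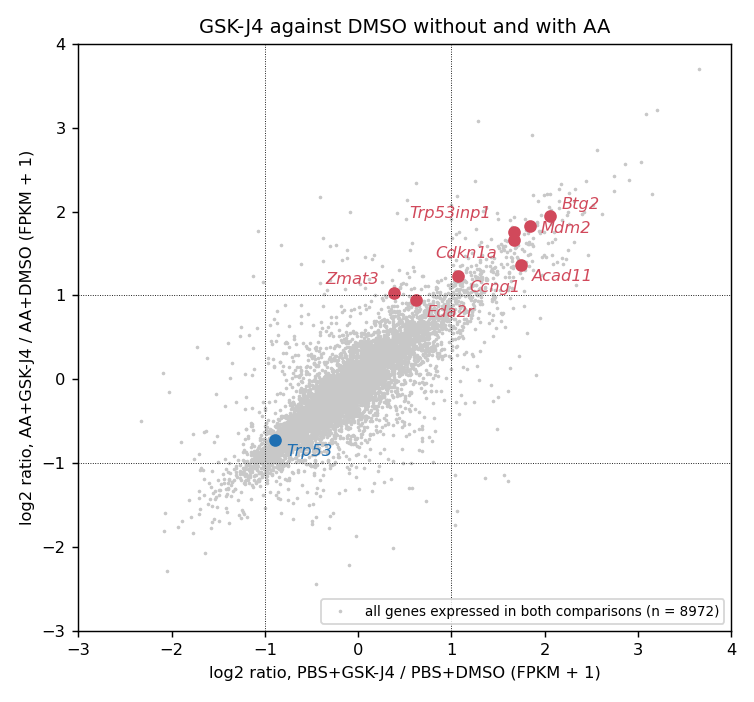
Log2 ratio of GSK-J4 against DMSO without AA (horizontal) and with AA (vertical) for the 8972 genes that passed the 1 FPKM limit in both comparisons, each a grey point, with the p53 targets in red, *Trp53* in blue and dotted lines at 2-fold. *Btg2*, *Mdm2*, *Trp53inp1*, *Cdkn1a*, *Acad11* and *Ccng1* are past 2-fold on both axes, *Zmat3* only on the vertical axis and *Eda2r* on neither.

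*Trp53*, at chr11:69579625-69591872, went the other way. The DMSO libraries had 203 FPKM without AA and 179 with it, and the GSK-J4 libraries 109 without AA and 108 with it. The GSK-J4 libraries were 46.2% lower without AA and 39.6% lower with AA, with log2 ratios of -0.89 and -0.72, short of 2-fold. It ranked 542 and 996 from the lowest of all genes.

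Abundant genes as a class were lower with GSK-J4 in these tables, which bears on how far *Trp53* stood apart. The 300 genes nearest to *Trp53* in mean expression had a median log2 ratio of -0.65 without AA and -0.59 with AA, so *Trp53* differed from genes of its own abundance by -0.24 and -0.14. For the targets the same reference goes the opposite way from their ratios. The 300 genes nearest to *Mdm2* had medians of -0.62 and -0.55, those nearest to *Cdkn1a* -0.48 and -0.41, and those nearest to *Acad11* -0.15 and -0.05. Measured against such neighbours the 8 targets had a median log2 ratio of 2.03 without AA and 1.95 with AA, from 0.72 to 2.53 and from 1.27 to 2.38.

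The ratio of *Mdm2* to *Trp53* mRNA in one library needs no scaling between libraries. It was 0.293 in PBS+DMSO and 0.302 in AA+DMSO, against 1.98 with GSK-J4 alone and 1.81 with GSK-J4 and AA. *Trp53* thus exceeded *Mdm2* in both DMSO libraries and *Mdm2* exceeded *Trp53* in both GSK-J4 libraries. The *Trp53* span overlaps *Wrap53*, a telomerase and Cajal body gene on the opposite strand, over 631 bases. *Wrap53* was low beside *Trp53*, at 14.5, 20.9, 14.9 and 16.3 FPKM in PBS+DMSO, PBS+GSK-J4, AA+DMSO and AA+GSK-J4.

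With AA against PBS no target reached a 2-fold difference. AA+DMSO against PBS+DMSO gave 0 of the 8, where 0.565% of 8843 genes were 2-fold higher and 0.735% lower, and the median log2 ratio was -0.13. AA+GSK-J4 against PBS+GSK-J4 also gave 0, where 0.512% of 9180 genes were 2-fold higher and 0.599% lower, and the median was -0.09. Each of these comparisons sets libraries of 2 tables side by side, and whether those tables were normalised together is not stated. They also share their libraries with the GSK-J4 comparisons above.

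In DMSO 7 of the 8 targets were lower with AA, as were 62.4% of all genes, and in GSK-J4 6 of the 8 were, as were 55.4% of all genes. *Zmat3* was 38.0% lower in AA+DMSO than in PBS+DMSO, a log2 ratio of -0.64 that only this target carried past 1.5-fold (2.22% of all genes), and was level between the GSK-J4 libraries. *Eda2r* was 23.4% lower in AA+DMSO, a log2 ratio of -0.37, and had -0.04 in GSK-J4. *Acad11* had 0.06 in DMSO and -0.33 in GSK-J4, where it was 21.5% lower with AA. *Cdkn1a* had -0.12 and -0.13, *Mdm2* -0.14 and -0.15, and *Btg2* -0.08 and -0.20. These 3 genes were thus slightly lower with AA in both comparisons, where the medians of all genes were -0.05 and -0.02. *Ccng1* had -0.19 and -0.03, *Trp53inp1* -0.04 and 0.05, and *Trp53* -0.18 and -0.02, and of these the *Trp53inp1* ratios and the GSK-J4 ratios of *Ccng1* and *Trp53* changed sign under at least 1 other scaling or summing of the values.

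**Figure D3:**
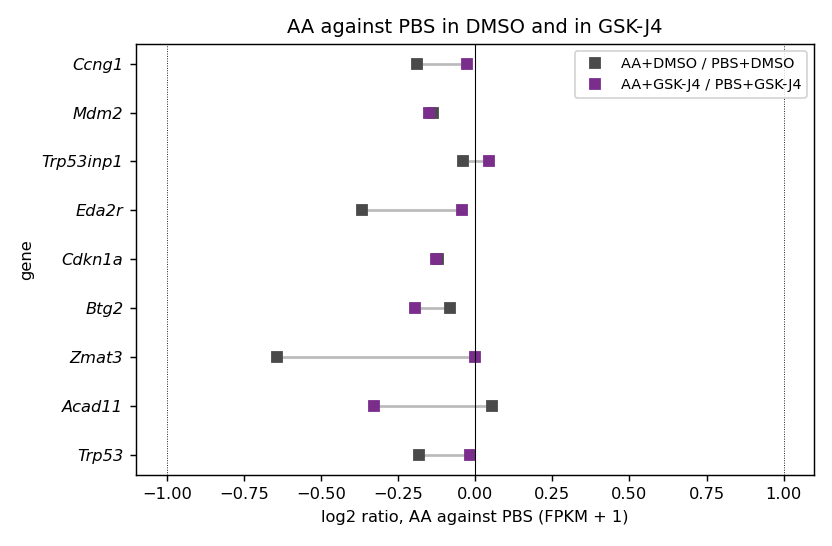
Log2 ratio of AA against PBS in DMSO (dark grey) and in GSK-J4 (purple) for each target and *Trp53*, 1 ratio of 2 libraries per square, with a grey line joining the 2 ratios of a gene and dotted lines at 2-fold. All squares lie within 2-fold, the farthest being *Zmat3* in DMSO at -0.64.

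Other genes of the pathway were taken from a list of 40 known p53 targets outside the members, of which 36 have a value. Without AA 12 of the 36 were at least 2-fold higher with GSK-J4 and none 2-fold lower, with a median log2 ratio of 0.57, and with AA 9 were higher and none lower, with a median of 0.47. Of these genes 9 were 2-fold higher in both. The list was drawn up with results of these libraries known, and the shares over all genes are the 4.96% and 4.13% above.

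*Ddit4*, an inhibitor of mTORC1 signalling, had the largest ratio on this list on the log2(FPKM + 1) scale. Its FPKM values in PBS+DMSO, PBS+GSK-J4, AA+DMSO and AA+GSK-J4 were 29.4, 279.8, 20.7 and 200.6, with log2 ratios of 3.21 and 3.22. *Perp*, a desmosomal membrane protein linked to apoptosis, had 22.3, 102, 18.5 and 84.2 in the same order. *Plk2*, a polo-like kinase of the stress response, had 19.4, 82.4, 16.6 and 80.6. In each of these 3 genes both GSK-J4 libraries were at least 4-fold above the DMSO libraries they were compared with. *Ephx1*, the microsomal epoxide hydrolase, had 9.41, 43.8, 9.99 and 36.2, with log2 ratios of 2.10 and 1.76.

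Of the 36 genes 32 were higher and 4 lower with GSK-J4 without AA, and 30 were higher and 6 lower with AA. Among all genes 37% and 37.8% were higher. *Bax*, a pore-forming effector of apoptosis, was lower with GSK-J4 at 138 against 186 FPKM without AA and 125 against 160 with AA, log2 ratios of -0.43 and -0.35. The 300 genes nearest to it in mean expression had medians of -0.65 and -0.59, so *Bax* lay above genes of its own abundance. *Rps27l*, whose pair of half-sites is shown above, had 405 FPKM in PBS+DMSO and 300.3 with GSK-J4, log2 ratios of -0.43 without AA and -0.39 with AA, against -0.58 and -0.54 for its neighbours. *Tigar*, a fructose bisphosphatase that diverts glucose from glycolysis, had 17.1 and 11.6, a log2 ratio of -0.52 without AA against -0.26 for its neighbours. *Gtse1*, with a pair of half-sites as close to the consensus, was slightly higher, with log2 ratios of 0.14 and 0.09 where its neighbours had -0.60 and -0.55. These 4 were named after their values were seen.

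Some p53 targets are also induced by ATF4 and CHOP, transcription factors of the integrated stress response, so 7 markers of that pathway are given beside them. The marker list was drawn up with results of these libraries known, and its counts are a description. All 7 markers were higher with GSK-J4 in both comparisons (37% and 37.8% of all genes), 6 of them at least 2-fold (4.96% and 4.13%). Their median log2 ratios were 2.52 and 2.08. Their summed level in the DMSO libraries was 208 FPKM without AA and 222 with it, and in the GSK-J4 libraries 492 and 557. *Ddit3*, which encodes CHOP, was at 6.64 FPKM in PBS+DMSO and 63.7 with GSK-J4, and with AA at 7.45 and 75, and *Trib3*, a pseudokinase that CHOP induces, at 4.10 and 28.2, and with AA at 7.34 and 34.3. Of the 36 other targets 5 are shared with ATF4 and CHOP: *Ddit4*, *Sesn2*, *Bbc3*, *Tnfrsf10b* and *Pmaip1*. *Sesn2*, a leucine sensor, had 39.8, 84.1, 40 and 85.5 FPKM in PBS+DMSO, PBS+GSK-J4, AA+DMSO and AA+GSK-J4. Without these 5 genes, 10 and 7 of 31 targets were 2-fold higher (4.96% and 4.13% of all genes), and the medians were 0.44 and 0.38. The part of ATF4 and CHOP in the ratios of the members was not tested.

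**Figure D4:**
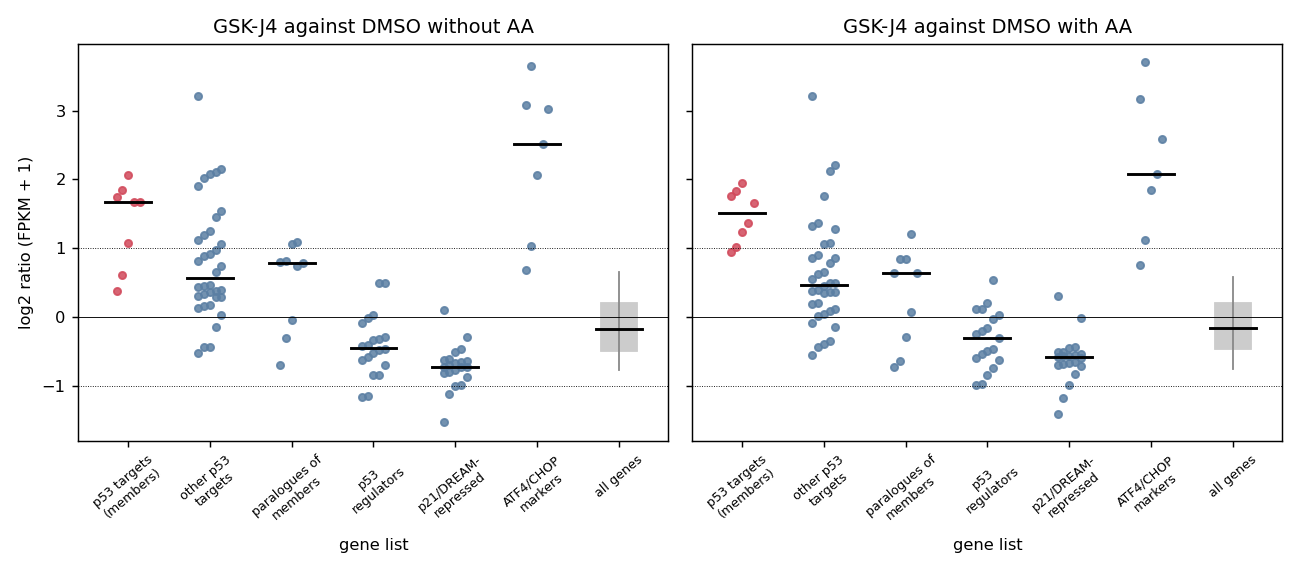
Log2 ratio of GSK-J4 against DMSO without AA (left) and with AA (right) for the 8 p53 targets, other p53 targets, paralogues of the members, p53 regulators, genes repressed through p21 and DREAM, and ATF4/CHOP markers, 1 point per gene, with a black bar at each median. The grey box holds the middle 50% of all genes and its line the middle 80%, with dotted lines at 2-fold, and the medians run from 2.52 for the ATF4/CHOP markers on the left to -0.72 for the p21/DREAM genes.

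Genes that act on p53 were mostly lower with GSK-J4, 17 of 20 without AA and 14 of 19 with AA, as were 63% and 62.2% of all genes. Of 25 listed p53 regulators 20 have a value (*Mdm4*, the partner of Mdm2, was left out for a failed estimate). None was 2-fold higher in either comparison (4.96% and 4.13% of all genes). Of the regulators 2 without AA and none with AA were 2-fold lower (3.5% and 3.38% of all genes). Their medians, -0.44 and -0.30, were close to those of genes of like abundance, from which they differed by a median of -0.11 and -0.00. *Usp7*, a deubiquitinase of Mdm2 and p53, had 81.0, 35.9, 74.2 and 37.5 FPKM in PBS+DMSO, PBS+GSK-J4, AA+DMSO and AA+GSK-J4. *Aurka*, a mitotic kinase that phosphorylates p53, had 81.2, 36.2, 71.4 and 35.6. Both lay near 2-fold lower with GSK-J4 in each comparison. *Trp73*, a family member of *Trp53*, was low in DMSO at 0.510 and 0.410 FPKM and had 3.07 and 2.51 with GSK-J4, log2 ratios of 1.43 and 1.32.

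p53 also represses cell cycle genes, by way of p21 and the DREAM complex. Of 24 such genes 21 have a value, and 20 of the 21 were lower with GSK-J4 in each comparison (63% and 62.2% of all genes), 3 without AA and 2 with AA at least 2-fold (3.5% and 3.38% of all genes). The medians, -0.72 and -0.57, differed from those of genes of like abundance by -0.14 and -0.12. *Plk1*, the mitotic polo-like kinase, had the lowest log2 ratios, -1.53 and -1.40, with 81.7, 27.7, 73.5 and 27.2 FPKM in PBS+DMSO, PBS+GSK-J4, AA+DMSO and AA+GSK-J4.

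Among cyclins, their kinases and inhibitors, 13 genes passed the filter on low values. Without AA 2 were 2-fold higher and 2 lower (4.96% and 3.5% of all genes), and with AA 1 was higher and 3 lower (4.13% and 3.38%). *Rb1*, the retinoblastoma protein that p21 keeps active, had 10.4, 33.3, 8.25 and 28.1 FPKM in PBS+DMSO, PBS+GSK-J4, AA+DMSO and AA+GSK-J4. *Ccne1*, cyclin E1, had 139, 59.3, 134 and 55.7, and *Ccnd3*, cyclin D3, had 200.1, 92.9, 227 and 96.1. *Rb1*, like *Cdkn1a*, was thus higher in both GSK-J4 libraries, and these G1 cyclins were lower.

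Paralogues of the members were less uniform. *Cdkn1b*, which encodes p27 and is the closest listed relative of *Cdkn1a*, had 9.33, 9.05, 9.77 and 10.3 FPKM in PBS+DMSO, PBS+GSK-J4, AA+DMSO and AA+GSK-J4. It was level across the libraries, and the ratio of *Cdkn1a* to *Cdkn1b* was 2.63, 8.89, 2.30 and 7.11 in the same order. *Btg1*, the relative of *Btg2*, had 20.7, 44.4, 20 and 47.3, and *Ccng2*, the relative of *Ccng1*, had 4.59, 10.9, 3.34 and 6.81. Both were higher with GSK-J4, *Btg1* with log2 ratios of 1.06 and 1.20 and *Ccng2* with 1.09 and 0.85, against 2.06 and 1.94 for *Btg2* and 1.07 and 1.23 for *Ccng1*.

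The other paralogues differed by less than 2-fold on the log2(FPKM + 1) scale. *Trp53inp2* had log2 ratios of 0.74 and 0.64, *Phlda1* 0.78 and 0.84, and *Acad10* 0.81 and 0.65. *Zmat2* had -0.70 and -0.64, *Phlda2* -0.30 and -0.73, and *Btg3* 0.80 and -0.28. Of the 9 paralogues with a value 2 without AA and 1 with AA were 2-fold higher (4.96% and 4.13% of all genes). None was 2-fold lower (3.5% and 3.38% of all genes), and the medians were 0.78 and 0.64.

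The genes most like *Cdkn1a* in pattern were sought by the Euclidean distance between log2(FPKM + 1) values centred on their mean over the 4 libraries, among 6560 genes that reached 5 FPKM in any library. The nearest were *Zfp365* at a distance of 0.09, *Zfp750* at 0.10, *St14* at 0.11, *Fbp2* at 0.11 and *Lpin1* at 0.12. Among the members *Trp53inp1* was at rank 13 from *Cdkn1a*, *Mdm2* at 19, *Acad11* at 28, *Btg2* at 55, *Ccng1* at 130, *Eda2r* at 314 and *Zmat3* at 416. *Zfp365* had 8.29, 31.0, 7.5 and 27.2 FPKM in PBS+DMSO, PBS+GSK-J4, AA+DMSO and AA+GSK-J4. This likeness rests on 4 libraries and mainly on the step between DMSO and GSK-J4. The members were in part selected on that step, so their ranks are a description and nothing more is read from them.

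The identity of the cells was checked from marker genes. All 10 ESC markers have a value, with *Pou5f1*, which encodes Oct4, at 867 FPKM in PBS+DMSO, and their summed level was 2291 and 2091 FPKM in DMSO without and with AA and 1385 and 1252 with GSK-J4. From genes of like abundance their log2 ratios differed by a median of -0.10 without AA and -0.03 with AA. None was 2-fold higher, and 1 without AA and 2 with AA were 2-fold lower (3.5% and 3.38% of all genes). *Utf1*, the only marker 2-fold lower in both, had 167, 55.2, 172 and 49.6 FPKM in PBS+DMSO, PBS+GSK-J4, AA+DMSO and AA+GSK-J4. Its log2 ratios were -1.58 and -1.77. Of 10 feeder fibroblast markers 3 have a value, and their sum stayed between 7.54 and 8.85 FPKM in every library. Of 5 listed primitive endoderm markers only *Sox7* has a value, and of 4 for trophoblast only *Eomes*. Of 2 for mesoderm only *Mesp1* has a value, and of 3 neural markers only *Pax6*. Each of these was below 3 FPKM, and the others could not be checked. In RNA from whole cultures fewer cells of a type and less RNA per cell cannot be told apart, and the part of the lower ESC markers in the members' ratios was not tested.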

How the data were processed

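RNA-Seq was performed on LF2 ESCs in 4 conditions with 1 library each. Reads were single-end, and after duplicate removal the authors ran TopHat2 (on mm10), Cufflinks2 and CummeRbund, with Genome Explorer, on the Maser platform. The FPKM values they deposited are in 2 tables, without and with AA, of 11033 coding sequence groups. Removal of duplicates can lower abundant genes, and its part in these values was not tested. The columns headed as log10 hold linear FPKM. The labels name a DNA library kit, and strand is not stated. The deposited fold changes, p-values and q-values are the authors' comparisons and were not used.

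FPKM was summed per gene, and 157 genes with a failed estimate were dropped. Log2 ratios used a pseudocount of 1 and a 2-fold threshold, over genes reaching 1 FPKM in at least 1 of the libraries compared. With 1 library per condition no test was run. A model with GSK-J4 and AA as additive terms over the 4 libraries, with 1 residual degree of freedom, was not fitted. The depth is unknown. The ratio script was tested on simulated data. Members and lists were chosen with earlier results of these data known. Beside the members, most genes were named by rule. From each list the rule took up to 4 per direction that were 2-fold changed in both GSK-J4 comparisons, otherwise the 2 with the largest mean ratio. It also took all paralogues and the 5 nearest to *Cdkn1a*, and not every gene it took is named. Of the listed genes, 2 were matched by an older symbol. Python 3.11.15, numpy 2.4.6, pandas 2.3.3 and matplotlib 3.10.9 were used.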

Additional observations from a re-analysis of the deposited data

Results flagged for a closer look

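For 3 targets the ratio of AA against PBS had opposite signs in DMSO and in GSK-J4, with 1 library in each condition, and the difference was not tested. For each of them at least 1 of the 2 log2 ratios was close to 0. *Zmat3* was level in GSK-J4, at 0.0002, and *Acad11* had 0.06 in DMSO. The *Trp53inp1* ratios were -0.04 and 0.05, and each changed sign under at least 1 other scaling or summing. On the log2 scale the ratio in GSK-J4 minus that in DMSO was 0.64 for *Zmat3*, which had 17.7 FPKM in PBS+DMSO, 11.0 in AA+DMSO and 23.4 in both GSK-J4 libraries. It was -0.38 for *Acad11*, with 4.80, 5.02, 18.5 and 14.5 FPKM in PBS+DMSO, AA+DMSO, PBS+GSK-J4 and AA+GSK-J4. It was 0.0861 for *Trp53inp1*, with 32.7, 31.8, 106 and 109.9 FPKM in the same order.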

How the results depend on the processing

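In each of the 10 alternatives (pseudocounts, filters, scalings, centring and the highest coding sequence group in place of the sum), each of the 8 targets stayed above 0 and *Trp53* below 0 for GSK-J4 in both comparisons. For most targets this could not have come out otherwise. A pseudocount cannot turn a sign, and the filters left these ratios unchanged. Scaling and centring raised all of them, so only *Trp53* could have turned there. The highest group could alter only *Mdm2* and *Trp53inp1*. *Cdkn1a* ranged from 1.53 to 2.16 without AA. At a 4-fold threshold 1 target was higher without AA and 0 were with AA, and at a 1.5-fold threshold 1 was lower with AA in DMSO. *Eda2r* reached 2-fold without AA against neighbours in expression, at 1.05, and with AA under all 4 scalings, from 1.1 to 1.30, whereas *Zmat3* and *Acad11* with AA dropped to 0.83 and 0.96 with a pseudocount of 5. The AA signs were less firm: *Trp53inp1* turned in 5 alternatives in DMSO and 1 in GSK-J4, *Trp53* in 4 and *Ccng1* in 1 in GSK-J4. Of the genes past 2-fold with GSK-J4, 58.6% without and 55.0% with AA were higher, against 79.7% and 77.1% after centring, 84.0% and 82.1% after division by the upper quartile (medians of all genes 0.06 and 0.07) and 89.2% and 86.3% with equal library totals, which moved the medians from -0.17 and -0.16 to 0.16 and 0.14. The share was lower, at 45.2% and 49.3%, with a pseudocount of 5, at 48.9% and 47.5% for genes reaching 5 FPKM, and at 49.6% and 46.6% for genes at 1 FPKM or more in both libraries. With 1 library in each condition there are no replicates to pair. A model with GSK-J4 and AA as additive terms, which would pair the libraries by AA, was not fitted. The GSK-J4 ratios without and with AA stand side by side in its place. Leaving out a library would leave its condition empty.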
